A study of Homo sapiens with 8 samples.

Results

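The genes described here are TERT and its neighbours in chromosome 5p15, NKD2, SLC12A7, SLC6A19, SLC6A18, TERT, CLPTM1L, SLC6A3 and LPCAT1 in chromosomal order. These 8 of 20136 annotated protein-coding genes were chosen by a measured value, the H3K27me3 island score with DMSO in PC9 cells: they lie around the island that scored highest, so the score and extent of that island with DMSO are a description and not a finding. With 2000 bp added upstream of each gene, they span chr5:1006917-1526077 of GRCh37 (519 kb). The data were lists of islands, regions enriched for ChIP-seq tags, for H3K27me3 and H3K4me3 in PC9, a human lung adenocarcinoma cell line. Control cells received DMSO and treated cells received 1 μM GSK126, an inhibitor of the methyltransferase EZH2, both for 5 days. Each of the 4 combinations of mark and treatment had 2 libraries, and *D. melanogaster* chromatin had been added to every ChIP reaction as a spike-in. All comparisons were made within a replicate. An exact sign-flip test of 2 pairs cannot give a p-value below 0.5, so none are given, and differences are set against the spread between the replicates, which may be technical.

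H3K27me3 is placed by Polycomb repressive complex 2, whose catalytic subunit is EZH2, and marks the chromatin of silent genes, often as broad domains that run over several neighbouring genes. H3K4me3 marks the starts of active genes, and a start that carries both marks is called bivalent. TERT encodes the catalytic subunit of telomerase, which most cancer cells use to maintain their telomeres, whereas most differentiated cells keep it silent. Its neighbours have unrelated roles, among them transport of amino acids, dopamine and ions, and synthesis of lung surfactant lipid in the case of LPCAT1.

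H3K27me3 lay over the span in 3 broad blocks. H3K4me3 sites lay both on these blocks (17 of 29 sites overlapped a block) and between them, some of them at a block's end. Only 2 of these 17 were found in all 6 H3K4me3 lists, and of these the CLPTM1L start site only reached over the left end of the SLC6A3 block. The blocks were 123.6, 133.8 and 107.8 kb long, the first partly outside the span of 519 kb. They took up more of the span than the ground between them, so 17 of 29 sites is not read as a preference for the blocks. The following stretches of 200 bp from the GRCh37 plus strand are shown because they are where both marks met or were kept apart. Each is the window with the most CpG dinucleotides among the windows that the H3K4me3 lists covered in full at that site, and CpG is in capitals.
Site at the left end of the SLC6A19-SLC6A18 block, chr5:1131201-1131400: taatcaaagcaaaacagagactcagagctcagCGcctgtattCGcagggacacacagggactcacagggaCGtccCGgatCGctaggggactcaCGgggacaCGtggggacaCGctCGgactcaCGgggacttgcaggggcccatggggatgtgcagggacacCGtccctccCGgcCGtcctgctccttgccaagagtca
Site where the longest GSK126 piece of that block began, chr5:1168201-1168400: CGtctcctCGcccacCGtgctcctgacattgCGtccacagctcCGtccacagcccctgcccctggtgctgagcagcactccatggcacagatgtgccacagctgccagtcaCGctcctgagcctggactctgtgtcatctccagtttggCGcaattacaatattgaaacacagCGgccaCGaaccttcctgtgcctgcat
Site inside the SLC6A3 block, chr5:1386601-1386800: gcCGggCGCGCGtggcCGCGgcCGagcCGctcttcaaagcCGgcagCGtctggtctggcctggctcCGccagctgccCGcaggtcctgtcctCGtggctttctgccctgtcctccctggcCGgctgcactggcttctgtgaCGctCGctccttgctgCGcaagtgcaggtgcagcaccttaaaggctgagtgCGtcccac
Start of CLPTM1L, chr5:1345001-1345200: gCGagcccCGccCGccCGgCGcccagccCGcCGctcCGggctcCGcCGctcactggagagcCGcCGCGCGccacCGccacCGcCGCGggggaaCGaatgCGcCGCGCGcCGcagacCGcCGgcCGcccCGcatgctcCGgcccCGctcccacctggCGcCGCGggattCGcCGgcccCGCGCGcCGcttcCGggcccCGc
The first window held 13 CpG and had H3K27me3 in both spike-in lists with DMSO and in 0 of the 2 with GSK126. It lay inside an H3K27me3 island in the standard lists of both GSK126 replicates, so this difference was not seen at equal tag number. In the GSK126 spike-in list of replicate 2 an island began close by, at 1131601. The part of the block common to both DMSO replicates began at 1133401, to the right of this window. The second held 9 CpG, was covered by H3K4me3 in 5 of the 6 H3K4me3 lists, and had H3K27me3 in both treatments and both replicates. The third held 18 CpG and also had H3K27me3 in both treatments and both replicates. The CLPTM1L window, with 41 CpG and 85.5% G and C, was in an H3K4me3 island in all 6 lists and in no H3K27me3 island of the spike-in lists.

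The lists do not give tag counts, but an island's score sums, over its 200-bp windows, how improbable each tag number is under a Poisson background (-ln of the probability). The smallest islands thus reveal the mean tag number per window that a list was called with. In the H3K27me3 spike-in lists this mean was 1.65 and 2.33 tags with DMSO and 0.382 and 0.455 tags with GSK126 in replicates 1 and 2, which left the GSK126 lists with 23.1% and 19.6% of the tags of DMSO. The spike-in lists therefore show less H3K27me3 after GSK126 and also detect weak islands with fewer tags. The percentages match the ratios the authors report for tags over the whole *D. melanogaster* genome. Their ratio from H2Av-bound regions only, their primary method, was close to this in replicate 1 and clearly higher in replicate 2. All spike-in levels given here rest on the factor used for the lists, and levels with the other factor were not computed. In the standard lists both treatments of a replicate had the same mean to within 0.000865%, so these lists compare the distribution of the mark at equal tag number and not its amount. The H3K4me3 libraries of replicate 2 were the shallowest, with a mean of 0.302 tags per window against 1.77 in replicate 1. The lists average over all cells, so fewer cells with the mark and less of the mark per cell cannot be told apart. Of 6 epithelial markers, 5 (CDH1, KRT8, KRT18, KRT19 and EGFR) had an H3K4me3 island at the gene start in both DMSO lists, EPCAM had one in replicate 1 only, and 0 of 6 B cell markers had one.

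With DMSO, H3K27me3 islands of the spike-in lists covered 382 and 378 kb of the span, in 22 and 19 islands. With GSK126 they covered 286 and 299 kb, in 14 and 15 islands. Covered length was lower in both replicates, with a log2 ratio of -0.38 ± 0.06 (SD, n = 2), and the covered share of the span went from 73.5% and 72.8% to 55.1% and 57.6%. The covered length of the standard lists was 398 and 363 kb with DMSO and 345 and 332 kb with GSK126, a log2 ratio of -0.17 ± 0.06. The island number was lower with GSK126 in both kinds of list. For scale, the whole H3K27me3 spike-in lists covered 275 and 300 Mb with DMSO and 127 and 133 Mb with GSK126. The whole standard lists covered 279 and 258 Mb with DMSO and 241 and 189 Mb with GSK126. The map of all lists shows that the 3 blocks remained, while most islands of a few kb between them were not called.

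**Figure D1:**
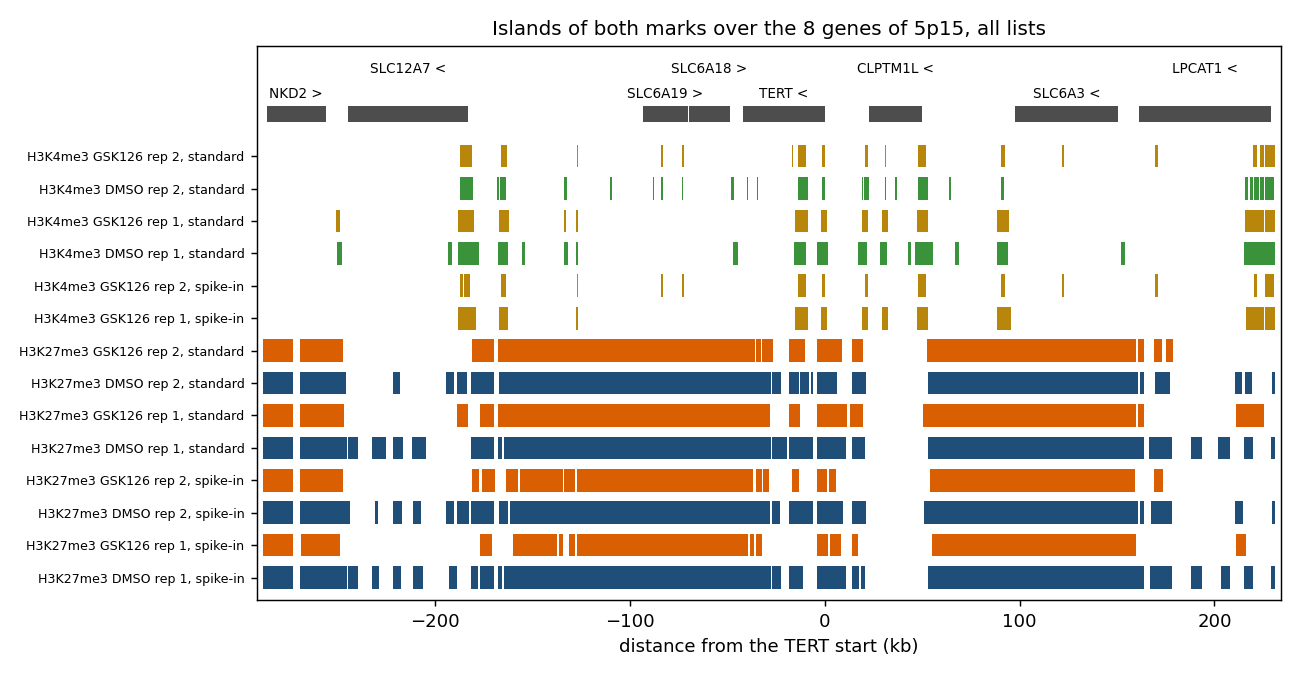
Islands of H3K27me3 (blue DMSO, orange GSK126) and H3K4me3 (green DMSO, yellow-brown GSK126) in the 14 lists, 1 row per list, against the distance from the TERT start in kb; grey bars are the 8 genes and the arrows give their strand. Blocks over NKD2, over SLC6A19 and SLC6A18, and over SLC6A3 are present in all 8 H3K27me3 lists, and SLC12A7, CLPTM1L and LPCAT1 lie mostly between them.

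The central block lay over SLC6A19 and SLC6A18, which encode amino acid transporters of the kidney and intestine, and ran into the 3′ part of TERT. With DMSO it was a single island of 136.8 kb with a score of 39448 in replicate 1, where it ranked 1 in the whole list, and of 133.8 kb with a score of 60021 in replicate 2, where it ranked 3. In the GSK126 spike-in lists the same ground held 6 pieces in each replicate, and these covered 88% and 96.0% of the DMSO island. For scale, 43.8% of the 603 DMSO islands of 40 kb or more in replicate 1 and 42.2% of the 792 in replicate 2 were covered over at least 88% with GSK126, the lower of these values. The longest piece was 87.6 kb in replicate 1 and 90.6 kb in replicate 2. It still ranked 1 and 5 among all islands of its list.

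The pieces were arranged alike in both replicates. The longest piece began at 1168201 in replicate 1 and at 1168001 in replicate 2, that is 37.6 and 34.6 kb to the right of the left edge with DMSO. Just to the left of it were gaps of 1.2 and 0.8 kb. An H3K4me3 site of 1.4 kb (1167401 to 1168800), joined from islands of 5 of the 6 H3K4me3 lists, lay there. Its replicate 1 islands overlapped the gap of that replicate. The replicate 2 islands (1168001 to 1168400, with GSK126 only) began where the gap of replicate 2 ended. In the GSK126 spike-in lists these islands scored 38.2 and 26.6, where the lowest of the list was 38.0 and 21.8. The right edge moved by -11.6 and -8.6 kb. Pieces of 22.6 and 21.6 kb to the left of that gap had scores of only 671 and 1192, against 16368 and 30500 for the longest piece, so the weaker left part of the block and the stronger part over the genes became separate islands. At equal tag number the block was not divided in this way: the standard lists had 1 piece in replicate 1 and 3 in replicate 2, which covered 99.9% and 98.9% of the DMSO island, and the left edge moved by -3.2 and -0.6 kb.

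Within the islands the tag level was estimated as the even tag number per window that would give the score of the covered windows, a measure chosen after the data had been seen. The estimates of a library from its spike-in and its standard list differed by 0.0176% to 11.9% (median 1.71%, 20 comparisons). The largest difference was that of the central block in GSK126 replicate 1. There the spike-in list gave 29.0 times the mean of the list and the standard list 25.9 times. Over the SLC6A19-SLC6A18 block the even tag number in the spike-in lists was 28.8 and 43.7 with DMSO and 11.1 and 17.7 with GSK126. The level with GSK126 was thus 38.5% and 40.5% of DMSO, lower in both replicates but above the 23.1% and 19.6% of all tags. Set against the mean of its own list, the block went from 17.4 and 18.8 times the mean with DMSO to 29.0 and 38.8 times with GSK126. Its summed score at equal tag number was 1.74 and 2.66 times that of DMSO. The block was chosen for a high score with DMSO, and its ratios to DMSO carry that choice.

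The other blocks behaved in the same direction. The SLC6A3 block covered all of SLC6A3, which encodes the dopamine transporter, in each of the 8 H3K27me3 lists. Its even tag number was 30.9 and 44.6 with DMSO and 11.1 and 18.5 with GSK126, or 35.9% and 41.3%. It stayed in 1 piece in both GSK126 spike-in lists, of 105.0 and 105.4 kb, where the central block had 6. Over the NKD2 block the even tag number was 26.0 and 37.3 with DMSO and 8.72 and 13.6 with GSK126, or 33.5% and 36.4%. NKD2, an antagonist of canonical Wnt signalling, was covered over 88.8% and 89.4% of its length with DMSO and over 86.9% and 88.8% with GSK126. A tag level above the ratio of all tags was the rule for large islands rather than a property of 5p15, since it was found for 99.8% of the DMSO islands of 40 kb or more in replicate 1 and for 97% in replicate 2. The median over these islands was 33.7% and 32% of DMSO, and the central island was at the 79.6th and 79.8th percentile. In replicate 1 that percentile rests on the GSK126 estimate that differed most between the spike-in and the standard list. The EN2-CNPY1 island on chromosome 7 and the CDH4 island on chromosome 20, among the highest-scoring islands elsewhere, had 37.9% and 44.4%, and 42.2% and 48.3%.

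**Figure D2:**
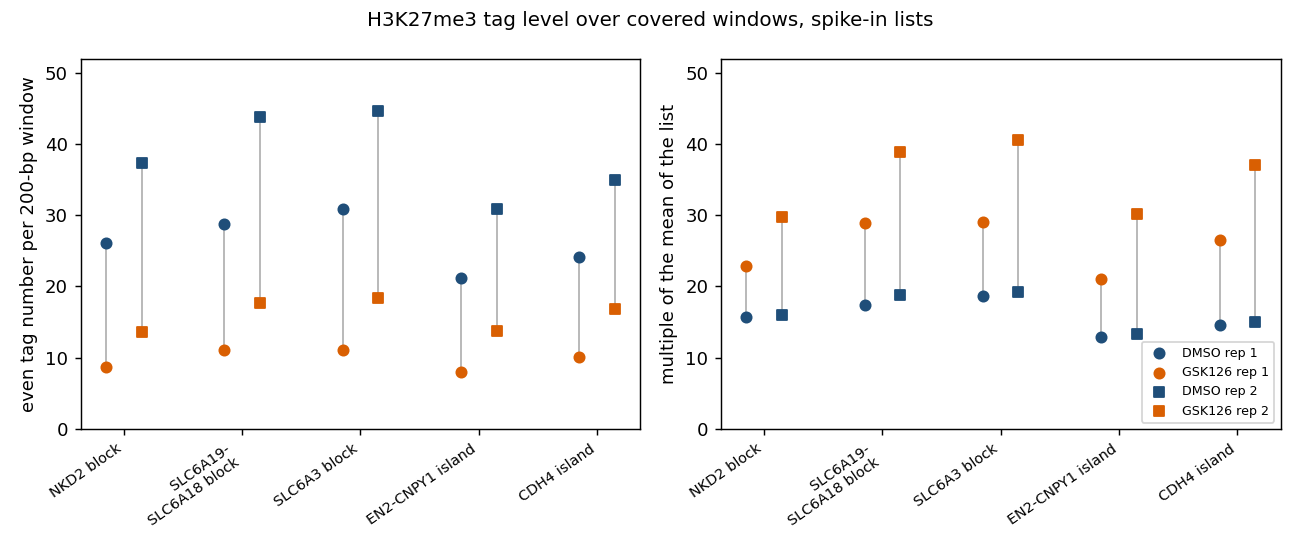
Even tag number per 200-bp window (left) and the same as a multiple of the mean of the list (right) over the covered windows of the 3 blocks and 2 comparison islands in the H3K27me3 spike-in lists; circles are replicate 1 and squares replicate 2, blue for DMSO and orange for GSK126. All points with GSK126 lie below their DMSO partner on the left, between 8.06 and 18.5 tags, and above it on the right.

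Between the blocks, the genes had less H3K27me3 with DMSO and little of it was called with GSK126. Of the 8 genes, 7 had an H3K27me3 island in both DMSO spike-in lists and could be compared, and 4 of them, NKD2, SLC12A7, TERT and LPCAT1, had a lower covered share with GSK126 in both replicates, whereas 89.7% of the 5573 genes compared did. SLC6A19, SLC6A18 and SLC6A3 stayed at 100% in all 8 lists, and a share of at least 95% in both DMSO spike-in lists was found for 2.97% of all genes. At least 95% of the DMSO covered share was kept in both replicates by 4 of the 7 genes, NKD2 and these 3, and by 4.38% of all genes compared. In the standard lists 3 of 7, SLC12A7, TERT and LPCAT1, had a lower share in both replicates, against 56.3% of 5101 genes. The median change in the spike-in lists was -1.24 percentage points over the 7 genes and -18.7 over all genes compared. These 4 genes lie under the 3 blocks, and the members were picked around the central one.

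SLC12A7, which encodes a potassium-chloride cotransporter, had an H3K4me3 island at its start. It was covered by H3K27me3 over 34.8% and 34.4% with DMSO, mostly by islands of 1.6 to 12 kb. With GSK126 it was covered over 0% in both spike-in lists, which was true of 32% of the genes compared. Most of its DMSO islands had scores near the calling threshold: with only islands of at least 2 times the lowest score of their list, the mean change was -1.62 percentage points in place of -34.6. Its share in the standard lists was 39.5% and 21.6% with DMSO and 8.79% and 0.28% with GSK126, so it was lower at equal tag number too. An island just upstream of SLC12A7 was present in all 8 lists, and it was 7.2 and 12 kb long with DMSO and 6.2 and 6.6 kb with GSK126 in the spike-in lists. At equal tag number its score was 559 and 886 with DMSO and 492 and 1001 with GSK126, lower in replicate 1 and higher in replicate 2.

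LPCAT1, the acyltransferase that makes saturated phosphatidylcholine for surfactant, was covered over 43.3% and 26.3% with DMSO and over 6.91% and 6.33% with GSK126. In replicate 1 the DMSO share included the right end of the SLC6A3 block. Its standard lists gave 47.3% and 26.6% with DMSO and 23.9% and 14.1% with GSK126. CLPTM1L, a membrane protein gene whose start has the strong H3K4me3 island shown above, was covered over 0% and 3.46% with DMSO and 0% in both replicates with GSK126. In the standard lists CLPTM1L was at 0% in all but GSK126 replicate 1, where the left end of the SLC6A3 block reached 4.82% of it.

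**Figure D3:**
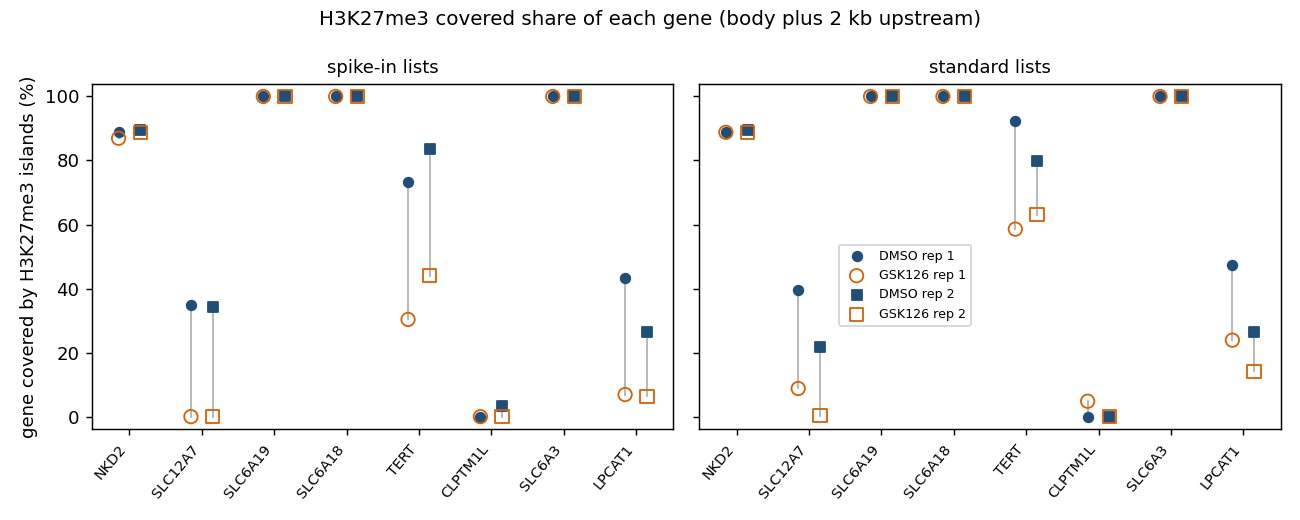
Share of each gene (body plus 2000 bp upstream) covered by H3K27me3 islands, in percent, for the spike-in lists (left) and the standard lists (right); filled blue symbols are DMSO, open orange symbols GSK126, circles replicate 1 and squares replicate 2. SLC6A19, SLC6A18 and SLC6A3 are at 100% throughout, and SLC12A7, TERT and LPCAT1 are lower with GSK126 in both replicates of both panels.

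TERT lies across the right edge of the central block (chr5:1253262-1295183, minus strand, 16 exons). Its covered share was 73.1% and 83.6% with DMSO and 30.4% and 44% with GSK126 in the spike-in lists, a difference of -41.2 ± 2.25 percentage points (SD, n = 2), the largest of the 8 genes. The standard lists gave 92.3% and 80.0% with DMSO and 58.6% and 63.1% with GSK126. With DMSO the central island reached from the 3′ end into intron 9, over 14.1 and 13.9 kb of the gene. With GSK126 the longest piece ended in intron 13, after 2.54 and 5.34 kb. All 16 exons were under H3K27me3 with DMSO in the spike-in lists, and 7 and 10 exons were covered in full with GSK126.

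Different parts of TERT differed in what was called. Exons 7, 8 and 9 were covered in all 4 DMSO lists and in none of the 4 GSK126 lists, standard lists included, so this stretch was below the threshold at equal tag number too. The DMSO islands there were weak. They scored 108 in both spike-in lists (lowest of the list 41.3 and 42.7) and 131 and 78.3 in the standard lists (lowest 56.7 and 38.2). In the GSK126 standard list of replicate 2 an island ended at 1268400, near exon 9, which lies from 1268635. Exon 3 was covered by H3K27me3 in only 1 of the 4 GSK126 lists, the standard list of replicate 2. By contrast, exons 1 and 2 were covered in all 8 H3K27me3 lists by an island over the gene start. That island was 15.0 and 13.6 kb long with DMSO and 5.8 and 4.8 kb long with GSK126 in the spike-in lists, with its left end in intron 2 each time. With GSK126 another island of 5.4 and 3.8 kb lay just upstream (1298001-1303400 and 1297401-1301200), on ground that the DMSO island had covered. It scored 106 and 134, against 91.9 and 100 for the piece over the start. At equal tag number the island over the start scored 660 and 731 with DMSO and 591 and 623 with GSK126, a log2 ratio of -0.20 ± 0.05. The score of the central block was higher in both replicates. A gene-wide score is not given for TERT. Only part of the central island lies in the gene, and its score could be divided only by taking it as even along the island.

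**Figure D4:**
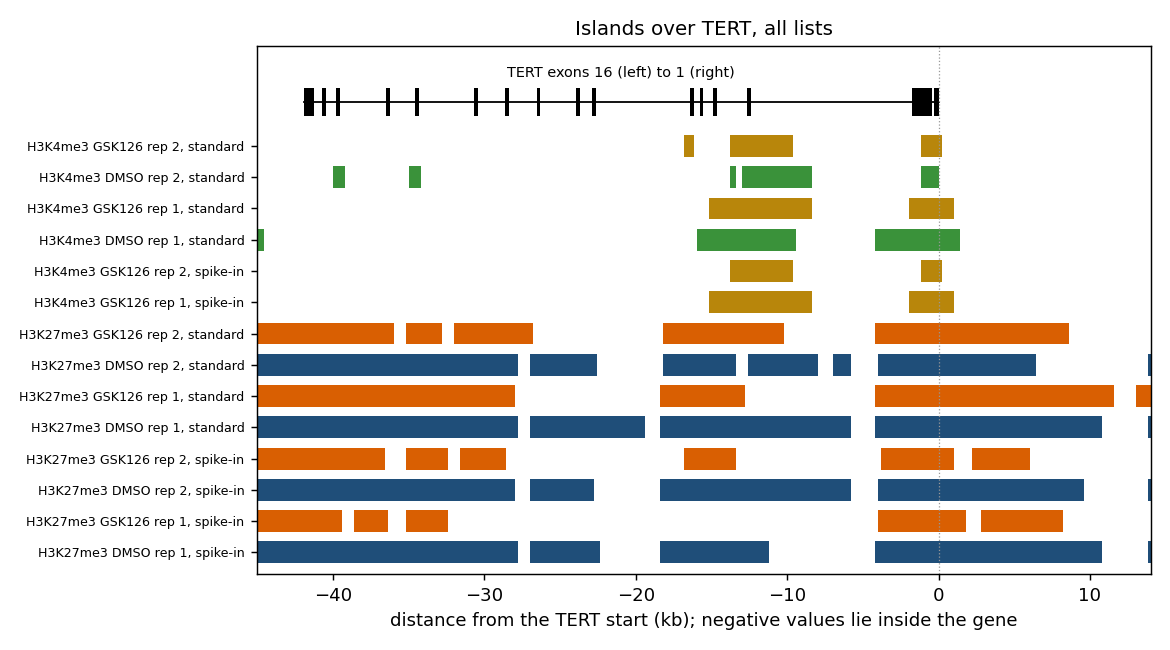
Islands over TERT in the 14 lists, 1 row per list, against the distance from the TERT start in kb, with negative values inside the gene; colours are as in the map of the whole span, and black bars are the 16 exons. The island over the start and exons 1 and 2 is in every H3K27me3 list, and exons 7 to 9 lie in an H3K27me3 island, a weak one, only with DMSO.

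TERT also carried H3K4me3, so its start was under islands of both marks in every list. The H3K4me3 island at the start had a score of 338 and 83.6 with DMSO and of 232 and 68.8 with GSK126 in the standard lists. A stronger H3K4me3 site lay 8.38 to 15.98 kb inside the gene (chr5:1279201-1286800, from intron 2 to intron 5, with exons 3, 4 and 5). Its score was 3443 and 973 with DMSO and 2013 and 448 with GSK126, a log2 ratio of -0.95 ± 0.24. It was lower in both replicates, also per covered kb, with log2 ratios of -0.82 and -0.87. H3K27me3 islands of both DMSO spike-in lists reached into this site, and of the GSK126 spike-in lists only that of replicate 2 had one there.

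An H3K4me3 island lay within 1000 bp of the gene start of 4 of the 8 genes, SLC12A7, TERT, CLPTM1L and LPCAT1, in both DMSO lists, and of 59.3% of all genes. These 4 starts kept an island in all GSK126 lists, and NKD2, SLC6A19, SLC6A18 and SLC6A3 had none within 1000 bp in any list. The starts of SLC12A7, CLPTM1L and LPCAT1 had island scores of 7565, 8107 and 9891 with DMSO in replicate 1, at least 20 times that of TERT. The covered share of the gene by H3K4me3 was lower in both replicates of the spike-in comparison at 4 of these 4 genes, against 37.1% of 13664 genes. In the comparison of standard lists it was lower at 3 of the 4, against 37.8% of 13664 genes, and SLC12A7 had 9.70% with either treatment in replicate 2. At equal tag number the score at the start was lower with GSK126 in both replicates at 4 of the 4 genes, against 24.5% of 11936 genes, with log2 ratios between -0.41 (TERT) and -0.20 (CLPTM1L) and a median of -0.23 against 0.00 over all genes. For SLC12A7, CLPTM1L and LPCAT1 the SD of the replicates was 0.24, 0.17 and 0.21, about as large as the mean itself.

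Over the span the H3K4me3 lists held 29 separate sites, of which 8 were found in all 6 lists. All 8 had a lower summed score with GSK126 in both replicates, but per covered kb this was so for 2 only, the site inside TERT and the site inside the SLC6A3 block; at the other 6 the score per covered kb was higher with GSK126 in at least 1 replicate. H3K4me3 covered 84.7 and 50.4 kb with DMSO, and 57.9 and 32.6 kb in the GSK126 spike-in lists, a log2 ratio of -0.59 ± 0.06. Those GSK126 lists were called on 83.6% and 86.9% of the tags of DMSO. The length at equal tag number was 59.9 and 37.7 kb, a log2 ratio of -0.46 ± 0.06. Of 18 sites over the span with DMSO in replicate 1, 12 were found again in the standard list with GSK126, and of 19 in replicate 2, 11 were. The same share over all H3K4me3 islands was not computed, so a general rate is not available for this count. Several sites were found in 1 list only and scored near the threshold. Examples are scores of 31.1 and 26.4 with DMSO in replicates 1 and 2, where the lowest of the list was 31.1 and 22.6. No new H3K4me3 island appeared within 1000 bp of the starts of the genes under the blocks.

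**Figure D5:**
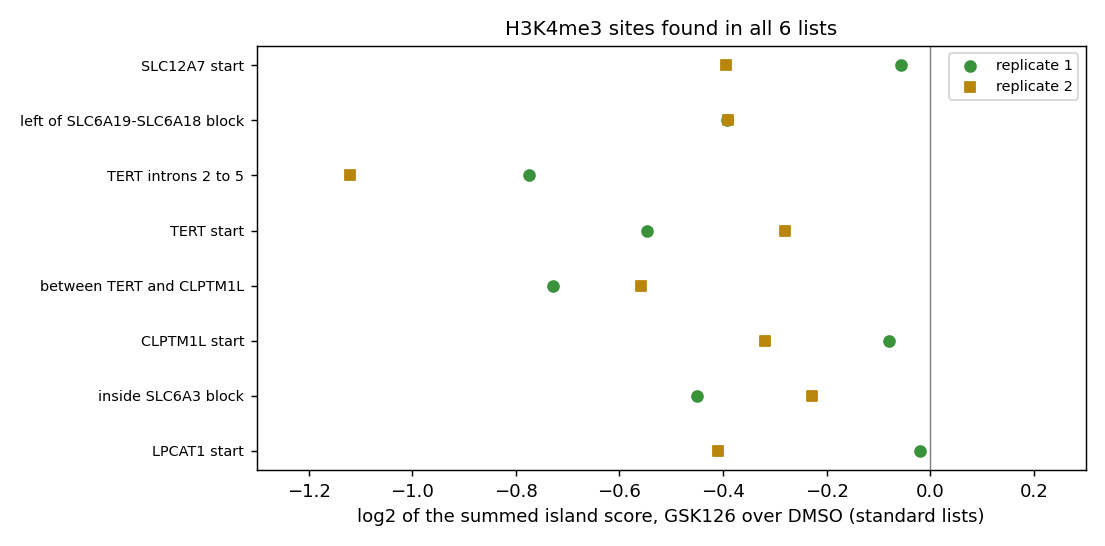
Log2 ratio of the summed H3K4me3 island score, GSK126 over DMSO in the standard lists, at the 8 sites found in all 6 lists; circles are replicate 1 and squares replicate 2, and the line at 0 marks no difference. All 16 points lie below 0, with the site inside TERT lowest at -0.77 and -1.12.

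The ground shared by both marks was smaller with GSK126. In the DMSO lists 50.1 and 30.4 kb of the span lay in islands of both marks, which was 59.1% and 60.3% of the H3K4me3 there. In the GSK126 spike-in lists it was 10.4 and 9.0 kb, or 18% and 27.6%. At equal tag number the shared length was 37.8 and 15.6 kb, or 63.1% and 41.4%, against 62.0% and 59.5% in the standard lists with DMSO. How far the lower tag number of the GSK126 spike-in lists set the smaller overlap was not tested.

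Base composition differed little between windows that kept H3K27me3 and windows without it, and G, C and CpG were higher under H3K4me3. Windows of 200 bp under H3K27me3 in both treatments and both replicates (272 kb) had a median of 57.5% G and C and a mean of 5.73 CpG. Windows under H3K27me3 in both replicates with DMSO only (46.2 kb) had 60.5% and 6.57 CpG, and windows without H3K27me3 (111 kb) had 58.5% and 6.71 CpG. Windows under H3K4me3 in all 6 lists had the most, 63.2% and 9.92 CpG. Neighbouring windows are not independent, and these values are a description.

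The other genes of the telomere machinery carried little H3K27me3. Of 12 genes for telomerase and shelterin, the complex that protects telomeres, 11 had an H3K4me3 island at the gene start in both DMSO lists, as TERT and 59.3% of all genes did, and only TERF2IP had H3K27me3, which 5573 of 20136 genes had in both DMSO lists, over 6.89% and 10.5% with DMSO and 0% with GSK126. TERF2 had neither mark at its annotated start. Among 16 other SLC6 carriers, 12 had H3K27me3 in both DMSO lists, 9 had a lower share in both replicates with GSK126 and 0 a higher one, where 89.7% of all genes compared had a lower one. SLC6A12, a betaine and GABA transporter, was covered over 100% and 100% with DMSO and over 97.0% and 95.5% with GSK126. SLC6A11 went from 93.8% and 97.0% to 61.3% and 59.4%, and SLC6A5, a glycine transporter, from 88.3% and 87% to 43.5% and 50.0%. SLC6A13 was at 88.2% and 84.2% with DMSO and 75.6% and 84.2% with GSK126. Of 8 other SLC12 carriers, 3 had H3K27me3 in both DMSO lists and all 3 had a lower share with GSK126, against the same 89.7%. SLC12A5, a neuronal chloride exporter, went from 79.6% and 93.1% to 49.9% and 62.3%, and SLC12A3, a kidney sodium-chloride transporter, from 53.5% and 51.6% to 12.5% and 16.3%.

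Among the genes most like TERT, by the root mean square difference in covered share over the 14 lists (11637 genes of at least 20 kb outside the span were compared), were CYTH4, MCF2L, CACNA1I and CYS1, at 8 to 9.25 percentage points. The nearest protein-coding genes outside the span, TRIP13 on the left and MRPL36 on the right, had 0% H3K27me3 in all 4 spike-in lists.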

How the data were processed

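Single-end tags of 50 nt were aligned by the authors to GRCh37 (hg19) with BWA; the submitters' processing notes also name SAMtools 0.1.18. Tags were removed at random either to equal numbers within a replicate (standard lists) or by a factor from *D. melanogaster* tags (spike-in lists), and SICER islands were called per library with windows of 200 bp, gaps of 600 bp (H3K27me3) or 200 bp (H3K4me3) and an E-value of 1. The deposited value of each island is a score that depends on tag number. H3K4me3 libraries with DMSO had 1 list, used in both comparisons.

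From the 14 lists, covered length, island number, edges and pieces were computed over GENCODE 44 genes mapped to GRCh37 with Python 3.11.15, NumPy 2.4.6 and SciPy 1.17.1; 0 of 331092 islands ran past a GRCh37 chromosome end. Scores were compared only between lists of equal tag number. Where the edge of a block cut an island, the island's score was taken as spread evenly over its length. Coverage, tag density and tag level were tested on simulated data. The simulated tag level was averaged over all windows, so that test cannot show the effect of weak windows lost from a list. The lists hold no counts, so no interval for tag numbers was computed. Blocks were DMSO islands of at least 20 kb, joined within 5 kb, and common to both replicates.

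The members and gene lists were chosen with earlier results of these data known. Named genes were the 8 members, their nearest flanking genes, telomerase, shelterin, SLC6 and SLC12 genes covered over at least 50% with DMSO (at most 5 per list), the 5 genes most like TERT, and 2 comparison islands; TERF2IP, TERF2 and the H3K4me3 sites were named after their values were seen. Of the genes this rule named, 2 are not reported here. Replicates were treated as pairs, since tag removal was done by the authors inside a replicate; the sample labels give no replicate numbers.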

Additional observations from a re-analysis of the deposited data

How the results depend on the processing

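In the standard lists the H3K27me3 covered length changed by -0.17 (log2), the DMSO top island was covered over 99.4%, the H3K4me3 length changed by -0.46, and the median change of the 8 genes was -0.16 (H3K27me3) and -0.29 (H3K4me3) percentage points. There the left edge of the central island moved by -1.9 kb in place of 36.1 kb, the reverse direction, and the right edge by -4.2 kb; the mean change of CLPTM1L was 2.41 points, from 1 library. Joining islands closer than 2000 bp gave edge shifts of 20 and -7.9 kb and a log2 ratio of island number of -0.81. A score of at least 2 times the lowest gave -0.43 for the H3K4me3 length and -0.19 points for its gene median. Gene bodies alone gave medians of -0.66 (H3K27me3) and -0.61 (H3K4me3) points, and 5 kb upstream gave -3.97 and -3.01. A 2000 bp window found H3K4me3 at the starts of 4.5 genes on average, with SLC6A3 added in 1 list. Per covered kb, the TERT start island changed by -0.38 and the median H3K4me3 site by -0.14. The tag level of the SLC6A19-SLC6A18 block was 36.8% from the scaled standard lists; this, the block and the site measures were chosen after the data had been seen. Without the replicate block, ratios of group means were -0.38 (H3K27me3 length), -0.50 (island number) and -0.58 (H3K4me3 length), and changed no direction.

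Without replicate 1 or replicate 2 no result changed direction; the H3K27me3 length ran from -0.42 to -0.34 the island number from -0.65 to -0.34, and the H3K27me3 median of the 8 genes from -2.04 to -0.93 points. Island number rests on the joining gap, and island calls in the GSK126 spike-in lists rest on 4.33 to 5.11 times fewer tags than with DMSO. The H3K4me3 lists of replicate 2 were the shallowest. Tag levels describe covered windows only.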
